A study of Mus musculus with 116 samples.

Results

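The 40 genes described here act in S phase, the stage of the cell cycle in which a cell copies its DNA. They form a list of S phase marker genes that was chosen with earlier results of these data known. All 40 were present among the 40202 gene symbols of the deposited count files. Their RNA was measured in nanoSPLITS libraries, a protocol for very small samples that splits each lysed droplet so that RNA and protein can be read from the same cells. The groups were single cells of C10, a mouse line labelled as alveolar type II epithelial cells, single cells of SVEC, a mouse line labelled as endothelial cells, and an input series of C10 libraries. The input series was made from 1 cell (n = 8), 3 cells (n = 6) or 10 cells (n = 6). All cells were grown under standard culture and received no treatment. The libraries of each line came from a single cell line, and no label says that they came from separate cultures, so every test below measures the spread between libraries.

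A count below is a read assigned to a gene, and CPM is the counts of a gene scaled to a library of 1000000 gene counts. Of 48 libraries per line, 2 of C10 had under 1000 counts and were not used, which left 46 C10 and 48 SVEC single cells. The C10 cells were the deeper set, with 83188 to 5911755 counts (median 1881704) against 5122 to 2831907 (median 434945) in SVEC. A median of 6103 genes was detected per C10 cell and 4404 per SVEC cell. The input libraries held 430798 to 15385625 counts. The labelled cell types were only thinly visible in the RNA: Sftpa1, Sftpb, Sftpc and Sftpd, which encode surfactant proteins, had no count in any C10 single cell, and the endothelial genes Kdr, Tie1, Vwf, Emcn, Esam and Cldn5 had none in any SVEC cell. Summed over 10 endothelial markers, the level was 0 to 20.5 CPM in C10 (median 0.401) and 0 to 138 CPM in SVEC cells (median 0). Summed over 12 alveolar epithelial markers it was 0 to 216 CPM in C10 (median 2.49) and 0 to 146 CPM in SVEC (median 0). No batch or sequencing date was given, so line and batch cannot be told apart.

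Before S phase, the MCM helicase is loaded onto replication origins with the help of CDC6, a step called licensing that geminin (Gmnn) blocks once replication has begun. CDC45 and the GINS complex then switch the helicase on, DNA polymerase alpha and its primase lay down primers, and PCNA, loaded by replication factor C, holds the later polymerases on the template. Ribonucleotide reductase (Rrm1, Rrm2) and thymidylate synthase (Tyms) supply the building blocks, and new histones are delivered behind the fork. Many of these genes are switched on at the G1 to S boundary by transcription factors of the E2F family, which bind sites near the transcription start.

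To show this control region, the promoters of the genes were searched for 4 E2F octamers, TTTCCCGC, TTTCGCGC, TTTGCCGC and TTTGGCGC, on both strands. RefSeq promoters of mouse assembly GRCm38.p6, from 250 bases before to 50 after the start, were on hand for 30 of the 40 genes. At least 1 octamer was found in 12 of the 30, or 40.0%, against 2.60% of 27025 genes with a promoter. The share was 36.4% (20 of 55) among other DNA replication genes and 4.76% (1 of 21) among G2/M genes, which act in the stages from the end of replication to mitosis. The letters CCAAT, the core of the site bound by the factor NF-Y, were present in 21 of the 30 S phase promoters (70.0%), 28 of 55 other replication promoters (50.9%), 18 of 21 G2/M promoters (85.7%) and 41.1% of all. A match is a description of the letters and not a measured binding site.

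The 250 bases before the start of 4 genes are printed, with the E2F octamers in capitals where present. Mcm6 had the most matches, at 3, of which the first pair overlaps. Mcm5 had an overlapping pair, Hells had 1 match, and Slbp, the gene with the lowest adjusted p between the lines, had none in this window. The regions are chr1:128359706-128359955 on the minus strand for Mcm6, chr8:75109259-75109508 on the plus strand for Mcm5, chr19:38930740-38930989 on the plus strand for Hells and chr5:33652575-33652824 on the minus strand for Slbp, all upstream of the annotated first exon.
Mcm6: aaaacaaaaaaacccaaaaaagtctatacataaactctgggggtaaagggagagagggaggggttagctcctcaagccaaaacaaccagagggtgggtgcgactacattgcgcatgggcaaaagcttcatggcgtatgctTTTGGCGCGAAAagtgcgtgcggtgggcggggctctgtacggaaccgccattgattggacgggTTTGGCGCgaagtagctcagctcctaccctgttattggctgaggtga
Mcm5: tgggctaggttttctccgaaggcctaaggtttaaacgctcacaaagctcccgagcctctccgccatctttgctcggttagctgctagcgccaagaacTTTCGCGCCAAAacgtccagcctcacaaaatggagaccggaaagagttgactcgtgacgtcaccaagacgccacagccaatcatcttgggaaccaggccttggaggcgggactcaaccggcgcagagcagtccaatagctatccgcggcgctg
Hells: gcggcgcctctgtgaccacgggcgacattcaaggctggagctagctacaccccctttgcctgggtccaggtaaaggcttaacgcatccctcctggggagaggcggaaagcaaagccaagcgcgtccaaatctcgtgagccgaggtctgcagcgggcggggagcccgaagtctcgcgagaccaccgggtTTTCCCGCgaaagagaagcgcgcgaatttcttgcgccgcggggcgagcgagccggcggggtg
Slbp: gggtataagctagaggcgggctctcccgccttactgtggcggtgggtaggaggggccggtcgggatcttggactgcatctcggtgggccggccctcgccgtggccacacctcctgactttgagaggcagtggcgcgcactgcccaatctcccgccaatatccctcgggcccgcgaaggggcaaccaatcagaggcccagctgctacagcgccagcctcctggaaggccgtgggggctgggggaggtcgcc
The Mcm6 matches begin 110, 106 and 47 bases before the start, the Mcm5 matches 153 and 149 bases before it, and the Hells match 62 bases before it. In Slbp the upstream stretch holds CCAAT 3 times, counting both strands. The other genes with an octamer in the full window were Dtl, Cdca7, Casp8ap2, Clspn, Pold3, Cdc6, Ubr7, Uhrf1 and Pola1.

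The first comparison asked how the 40 genes differed between single C10 and SVEC cells. Their RNA made up more of the SVEC libraries. Summed over the 40 genes, the level was 2566 ± 1862 CPM (SD, n = 46) in C10, with a lowest cell of 320, a median of 1877 and a highest of 8470 CPM. In SVEC it was 7367 ± 3821 CPM (SD, n = 48), from 430 through a median of 6858 to 14971 CPM. The ranges overlapped, but the lower quartile of SVEC (4254 CPM) lay above the upper quartile of C10 (3753 CPM). The mean CPM was higher in SVEC for 39 of the 40 genes, with a median ratio of 2.65, and the exception was Blm, a helicase of DNA repair, at a ratio of 0.640. Over all genes tested, 49.3% had the higher mean in SVEC and the median ratio was 0.984. From such means, a larger share of cells with the RNA and more RNA per cell cannot be told apart.

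Gene by gene, 38 of the 40 passed the filter of detection in at least 25% of the cells of a line, and 7 were higher in SVEC at an edgeR quasi-likelihood adjusted p under 0.05. None was higher in C10. Of all 9303 genes tested, 4.48% were called higher in SVEC and 14.4% higher in C10. The 7 were Slbp, Mcm4, Prim1, Atad2, Ccne2, Clspn and Ung. Ccne2, Clspn and Ung passed the 25% filter through SVEC alone, the line in which they were called higher, so their calls are not independent of the filter. With detection in at least 50% of a line these genes were not tested, and 5 of 22 members were called, all higher in SVEC. Of all 5888 genes tested with that filter, 212 were called higher in SVEC and 998 higher in C10. The median log2 fold change of SVEC over C10 was 1.13 over the 38 genes and -0.35 over all genes, and 37 of the 38 lay above that all-gene median. With library totals in place of TMM scaling factors the medians were 1.44 and 0.00, so each fold change below is read against the all-gene median of -0.35. At an unadjusted p under 0.05, 12 of the 38 differed, a share near that of all genes (2734 of 9303). With limma on log2(CPM + 1), 11 of the 38 were called, all higher in SVEC, where 3.53% of all genes were called higher in SVEC and 30.8% higher in C10. DESeq2 gave an adjusted p for 33 of the 38 and called 3, Slbp, Mcm4 and Prim1. For genes that edgeR called, the adjusted p of both edgeR and limma is given.

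**Figure D1:**
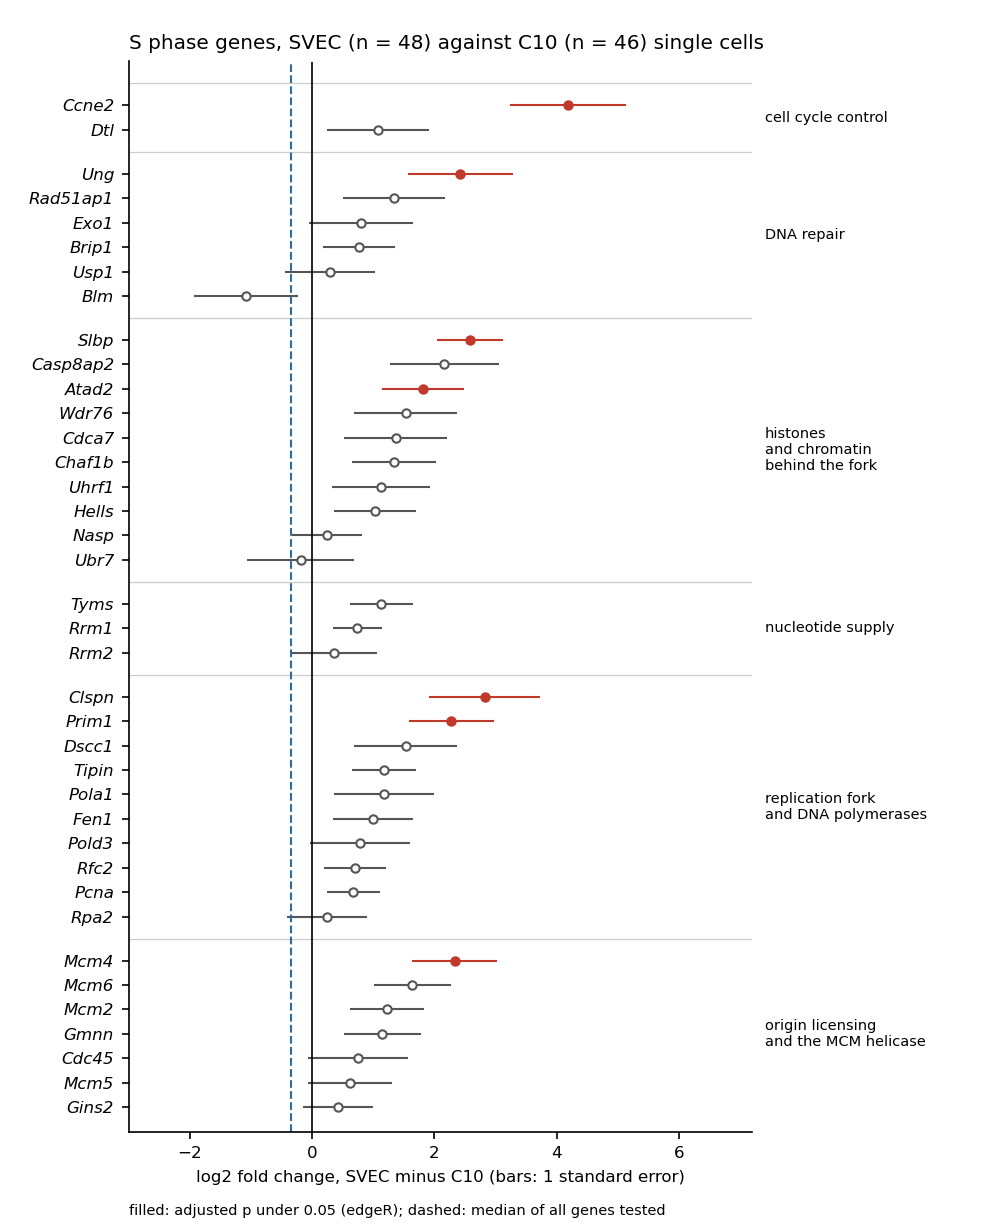
Log2 fold change (SVEC minus C10, horizontal axis) with 1 standard error for the 38 S phase genes that passed the filter, ordered by role, from edgeR on 46 C10 and 48 SVEC single cells. Filled points mark the 7 genes past an adjusted p of 0.05, all to the right of 0, and the dashed line marks the all-gene median of -0.35.

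Among the 8 genes of origin licensing and the MCM helicase, 7 were tested, 1 was higher in SVEC and the median log2 fold change was 1.15. The gene called was Mcm4, a subunit of the helicase ring. It ranged from 0 through a median of 1.64 to 544 CPM in C10 (53.1 ± 105, SD, n = 46) and from 0 through a median of 152 to 2262 CPM in SVEC (329 ± 475, SD, n = 48). Both lines held cells with no Mcm4 count. As counted, a similar share held a count, 31 of 46 C10 cells and 33 of 48 SVEC cells. The C10 libraries were deeper, however. When each library was drawn down to 100000 counts, 22 of 45 C10 cells (48.9%) and 30 of 42 SVEC cells (71.4%) held one. SVEC was higher both in the number of cells that reached 10 CPM, 32 of 48 against 17 of 46 in C10, and in its upper quartile, 547 against 50.8 CPM. The log2 fold change was 2.33 ± 0.69 (SE, adjusted p = 0.00857, edgeR; 0.00336, limma).

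The other MCM subunits on the list leaned the same way without passing edgeR's threshold. Mcm6 had a log2 fold change of 1.64 (adjusted p = 0.0517, edgeR; 1.68e-04, limma) and reached 10 CPM in 23 of 46 C10 and 40 of 48 SVEC cells. Mcm2 had 1.22 (adjusted p = 0.158, edgeR; 0.00511, limma). Mcm5 had 0.62 (adjusted p = 0.613, edgeR; 0.426, limma). As a group, all 4 MCM genes were detected together in 15 of 46 C10 cells and 20 of 48 SVEC cells, and none of the 4 in 7 and 4 cells. Gmnn, the licensing inhibitor, had a log2 fold change of 1.15 (adjusted p = 0.216, edgeR). The helicase activators Cdc45 and Gins2 had 0.74 and 0.42 (adjusted p = 0.611 and 0.695, edgeR). Cdc6, the loader, was below the filter, with a count in 7 of 46 C10 cells and 8 of 48 SVEC cells.

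Of the 10 genes of the fork and its polymerases, 2 were higher in SVEC and the median log2 fold change was 1.08. Prim1 encodes the catalytic subunit of the primase that starts each new strand. Its level ran from 0 through a median of 0.471 to 257 CPM in C10 (60.5 ± 85.5, SD, n = 46) and from 0 through a median of 240 to 1580 CPM in SVEC (341 ± 400, SD, n = 48). It was at 10 CPM or more in 17 of 46 C10 cells and 32 of 48 SVEC cells. A count under 10 CPM was found in 8 further C10 cells and in no SVEC cell. The upper quartile was 130 CPM in C10 and 458 CPM in SVEC. The log2 fold change was 2.28 ± 0.69 (SE, adjusted p = 0.0108, edgeR; 0.00227, limma).

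Clspn encodes claspin, which links the fork to checkpoint kinase signalling. It was detected in 10 of 46 C10 cells and 13 of 48 SVEC cells, with means of 4.33 and 35.4 CPM. The log2 fold change was 2.82 ± 0.91 (SE, adjusted p = 0.0169, edgeR), but limma did not call it (adjusted p = 0.0935). Its RefSeq gene overlaps Mir7119 and Gm12936, and the strand setting of the counting is not given, so reads of overlapping genes cannot be told apart. Tipin, a partner of the fork protection complex, had a log2 fold change of 1.17 (adjusted p = 0.115, edgeR; 0.0245, limma).

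Pcna, the sliding clamp, was seen in most cells of both lines. It ran from 0 through a median of 199 to 900 CPM in C10 and from 0 through a median of 384 to 2231 CPM in SVEC, and reached 10 CPM in 41 of 46 and 39 of 48 cells. Its log2 fold change of 0.67 ± 0.43 (SE, adjusted p = 0.312, edgeR) did not pass the test. The remaining fork genes lay between 0.25 for Rpa2, of the single-strand binding complex, and 1.53 for Dscc1, of an alternative clamp loader, and none was called by edgeR or limma. They were Rfc2 of the clamp loader, the flap nuclease Fen1, and the polymerase subunits Pola1 and Pold3.

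**Figure D2:**
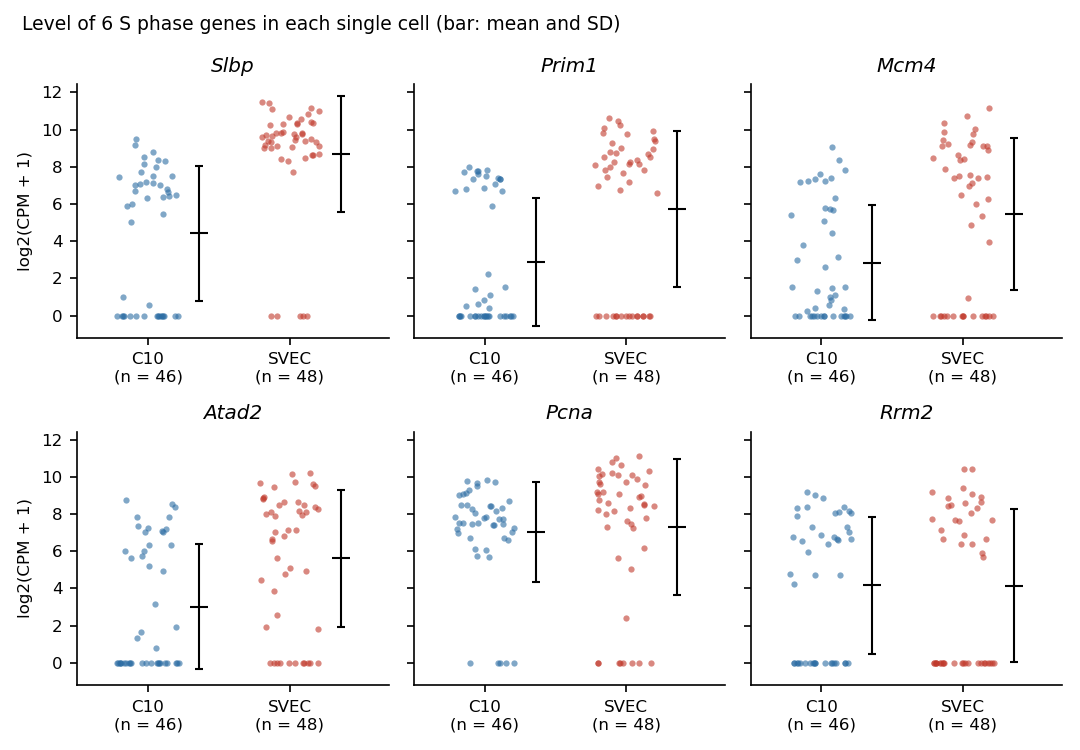
Level, as log2(CPM + 1), of 6 S phase genes in each of 46 C10 and 48 SVEC single cells, with the mean and SD as a bar. In Slbp, Prim1, Mcm4 and Atad2 the points of SVEC are more often high, and Pcna and Rrm2 overlap over most of their range. As counted, Mcm4 had a count in a similar share of cells of both lines (67.4% in C10 and 68.8% in SVEC). With libraries drawn down to 100000 counts, the shares were 48.9% of 45 C10 cells and 71.4% of 42 SVEC cells.

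None of the 3 nucleotide supply genes was called, and their median log2 fold change was 0.74. Tyms, thymidylate synthase, had a mean of 154 ± 182 CPM (SD, n = 46) in C10, with cells from 0 through a median of 85.1 to 741 CPM. In SVEC the mean was 434 ± 404 CPM (SD, n = 48), with cells from 0 through a median of 333 to 1687 CPM. Its log2 fold change was 1.13 ± 0.52 (SE, adjusted p = 0.122, edgeR; 0.0650, limma). The reductase subunits had 0.74 for Rrm1 (adjusted p = 0.210, edgeR) and 0.37 for Rrm2 (adjusted p = 0.793, edgeR). Rrm2 was at 10 CPM or more in 27 of 46 C10 cells and 25 of 48 SVEC cells.

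The 10 genes of histones and chromatin behind the fork had a median log2 fold change of 1.35, and 2 were higher in SVEC. Slbp encodes the stem-loop binding protein, which carries replication-dependent histone mRNAs through processing and translation. Its level ran from 0 through a median of 79.9 to 717 CPM in C10 (121 ± 161, SD, n = 46) and from 0 through a median of 748 to 2878 CPM in SVEC (897 ± 686, SD, n = 48). The highest C10 cell lay just under the SVEC median. A count was found in 30 of 46 C10 cells (Wilson 95% interval 50.8% to 77.3%) and 43 of 48 SVEC cells (77.8% to 95.5%). The log2 fold change was 2.58 ± 0.54 (SE, adjusted p = 9.51e-05, edgeR; 2.88e-07, limma), and DESeq2 also called it (adjusted p = 1.45e-05).

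Atad2, a bromodomain ATPase that binds newly made histones, ran from 0 through a median of 1.14 to 424 CPM in C10 (63.0 ± 105, SD, n = 46). In SVEC it ran from 0 through a median of 135 to 1198 CPM (254 ± 311, SD, n = 48). It reached 10 CPM in 19 of 46 and 34 of 48 cells. The log2 fold change was 1.81 ± 0.67 (SE, adjusted p = 0.0445, edgeR; 0.00263, limma), and without the libraries under 100000 counts the adjusted p was 0.0726 (edgeR). Atad2 overlaps Gm7552. Casp8ap2 had a log2 fold change of 2.16 (adjusted p = 0.0799, edgeR; 0.0156, limma). Chaf1b, of the chromatin assembly factor, had 1.34 (adjusted p = 0.181, edgeR; 0.0298, limma). Wdr76, Cdca7, Uhrf1 and Hells lay between 1.03 and 1.53 and were not called. The histone chaperone Nasp and Ubr7 were near 0, at 0.24 and -0.19.

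Of 6 DNA repair genes 1 was called, and their median log2 fold change was 0.78. Ung, the glycosylase that removes uracil from DNA, was detected in 4 of 46 C10 cells and 14 of 48 SVEC cells, with means of 2.62 and 18.0 CPM. Its log2 fold change was 2.42 ± 0.86 (SE, adjusted p = 0.0346, edgeR; 0.0330, limma), and its gene overlaps Alkbh2. The others were Rad51ap1 (1.34), Exo1 (0.81), Brip1 (0.76), Usp1 (0.29) and Blm (-1.08), and none was called. Blm had a count in 13 of 46 C10 cells and 5 of 48 SVEC cells, but 4 cells of each line reached 10 CPM.

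Among the 3 genes of cell cycle control, Ccne2, a cyclin that activates CDK2 at the start of S phase, had the highest ratio of the list. It was detected in 5 of 46 C10 cells and 17 of 48 SVEC cells, with means of 2.03 and 52.6 CPM and highest cells of 75.6 and 649 CPM. Its log2 fold change was 4.19 ± 0.94 (SE, adjusted p = 3.31e-04, edgeR; 0.00147, limma). Ccne2 overlaps A630034I12Rik and Ints8. Dtl, which targets licensing factors for destruction in S phase, had 1.08 (adjusted p = 0.427, edgeR). E2f8, a repressor of the E2F family, was below the filter, with a count in 3 of 46 C10 and 6 of 48 SVEC cells.

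How often a gene is seen depends on depth, and the SVEC cells were the shallower. As counted, 26 of the 40 genes were detected in a higher share of SVEC cells and 14 in a higher share of C10 cells. When each library was drawn down at random to 100000 counts, which kept 45 C10 and 42 SVEC cells, the split was 33 and 7. A C10 cell then held 16.4 ± 8.7 of the 40 genes (SD, median 13) and an SVEC cell 21.9 ± 7.9 (SD, median 22). By the level of 10 CPM, 34 genes were found in a higher share of SVEC cells and 6 in a higher share of C10 cells. A single read exceeds 10 CPM in a library under 100000 counts, so this measure also depends on depth. These splits are given for the 40 genes only. With the drawn counts, edgeR called 12 of 35 genes tested, all higher in SVEC. Of all 7226 genes tested on these counts, 486 were called higher in SVEC and 813 higher in C10. Slbp was then detected in 62.2% of C10 and 95.2% of SVEC cells.

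A second list held 65 other genes of DNA replication, of which 53 were tested. Of these, 40 had a log2 fold change above 0 and 5 were called higher in SVEC, with a median log2 fold change of 0.84 and none called higher in C10 by edgeR. By the rule on naming, Prim2, the partner subunit of Prim1, had a log2 fold change of 2.15 (adjusted p = 0.0339, edgeR; 0.00617, limma) and Rfc5 of the clamp loader 1.68 (adjusted p = 0.0442, edgeR; 0.146, limma). Timeless, the partner of Tipin, had 3.90 (adjusted p = 4.50e-04, edgeR; 4.20e-04, limma) and was named after its value was seen, since under 50% of SVEC cells held it. With limma, 6 of the 53 were higher in SVEC and 2, Orc5 and Pole4, higher in C10. Of 23 tested G2/M genes, none was called by edgeR, limma or DESeq2, and the median log2 fold change was 0.56. An unadjusted edgeR p under 0.05 was found for 3 of the 23, against 2734 of all 9303 genes. Of the 23, 22 lay above the all-gene median of -0.35. With edgeR under other settings, 7 of 23 were called higher in SVEC with the detection rate as a covariate (median 1.63), 2 of 21 with drawn counts and 1 of 23 with library totals. Under these settings, 638 of 9303, 486 of 7226 and 670 of 9303 of all genes were called higher in SVEC.

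The second question was whether the genes rise and fall together from cell to cell within a line. Pearson r of log2(CPM + 1) was computed for every pair of the genes detected in at least 50% of the cells of a line. It is given as a description, since the cells of a line share culture, depth and detection. In C10 the 210 pairs of 21 genes had a median r of 0.35, and 209 were above 0. The median over all pairs of 5770 genes detected as often was 0.041. In SVEC the 231 pairs of 22 genes had a median of 0.34, with 227 above 0, against 0.16 over 3061 genes. Without the libraries under 100000 counts, the SVEC median was 0.23, with 210 pairs above 0, against 0.079 over all genes. The C10 median was then 0.36. After log total counts and genes detected were regressed out, the medians were 0.20 in C10 and 0.19 in SVEC, beside 0.0099 and 0.033 over all genes. The median of the S phase pairs and that of all pairs were both smaller after this step, in both lines.

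Of the 210 pairs that could be formed in both lines, 205 were above 0 in both. The r of a pair in C10 and in SVEC correlated at 0.088. Each r carries a sampling error that was not estimated, so whether the lines share an order of the pairs cannot be judged. In C10 the closest pairs were Rpa2 with Atad2 (r = 0.67), Hells with Atad2 (0.64) and Tyms with Mcm4 (0.63). In SVEC they were Slbp with Tipin (0.72), Prim1 with Rpa2 (0.71) and Pcna with Mcm4 (0.63). The subunits of the MCM ring act as 1 complex. Over the 6 pairs of listed subunits the median r was 0.40 in C10 and 0.35 in SVEC. These values were near the medians of the S phase pairs, 0.35 and 0.34. Against the mean of the other members, Gmnn (0.72), Tyms (0.71) and Fen1 (0.71) followed most closely in C10, and Prim1 (0.73), Rpa2 (0.72) and Fen1 (0.70) in SVEC. Rrm1 was lowest in C10 (0.33), where 44 of 46 cells held it, and Nasp was lowest in SVEC (0.26). Prim1, first in SVEC, was at 0.37 in C10.

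**Figure D3:**
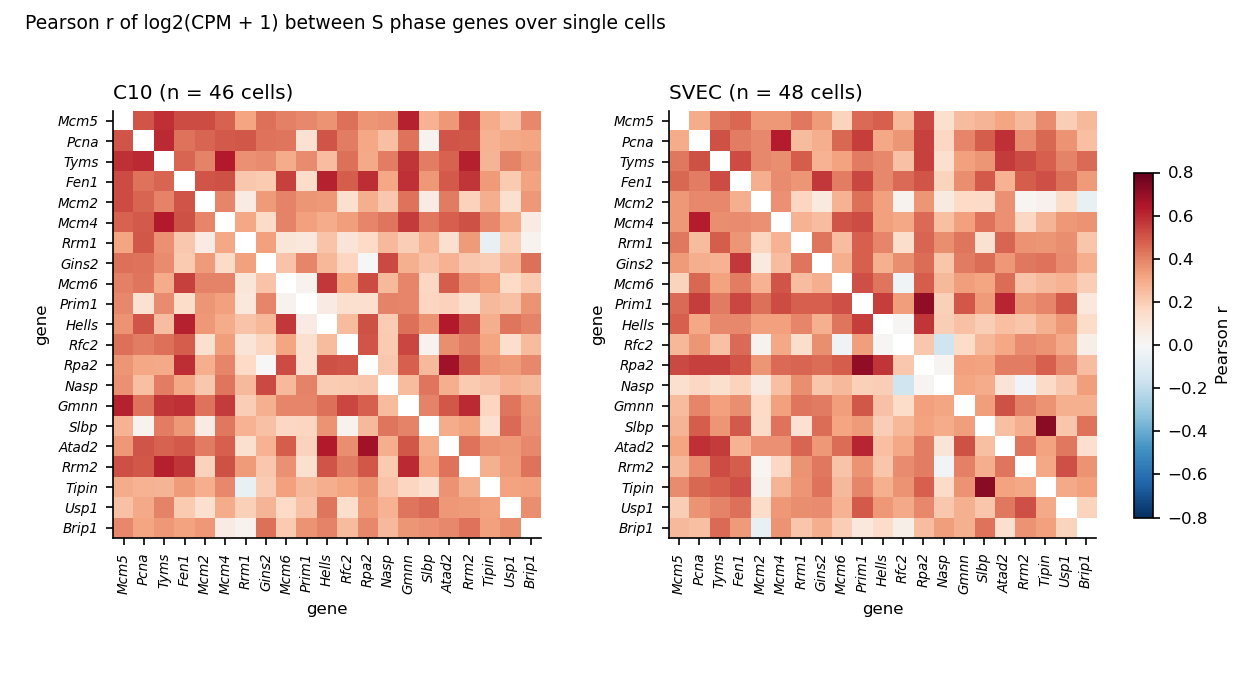
Pearson r of log2(CPM + 1) over 46 C10 cells (left) and 48 SVEC cells (right) for pairs of the 21 S phase genes detected in at least 50% of the cells of both lines, with red above 0 and blue below. Nearly all squares are red in both lines (209 and 206 of 210 pairs above 0), while the darkest squares fall on different pairs.

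The mean log2(CPM + 1) of the 40 genes was then set beside that of 24 G2/M genes in each cell. In C10 the levels moved together, with r = 0.65 (Spearman 0.74, n = 46), 0.63 without the 2 cells farthest from the median S phase level and 0.42 after depth and genes detected were regressed out. In SVEC r was 0.18 (Spearman 0.20, n = 48), 0.093 without 2 such cells and -0.25 after the regression, and nothing is read from so weak a value. The difference between the lines was not tested. The S phase level also followed the number of genes detected (r = 0.68 in C10 and 0.73 in SVEC) and log total counts (0.27 and 0.56).

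The plot of S phase against G2/M levels was divided at a mean log2(CPM + 1) of 3 on both axes, a value chosen after the points were seen. Both levels were below it in 23 of 46 C10 cells and 9 of 48 SVEC cells. The S phase level alone was above it in 6 C10 and 19 SVEC cells, both were above it in 12 and 17, and the G2/M level alone in 5 and 3. Drawn down to 100000 counts, the first count was 22 of 45 C10 cells and 5 of 42 SVEC cells, and the second was 6 and 18. Within 0.5 of the dividing S phase level lay 3 C10 cells and 6 SVEC cells. These areas are ranges of a level, not called phases.

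**Figure D4:**
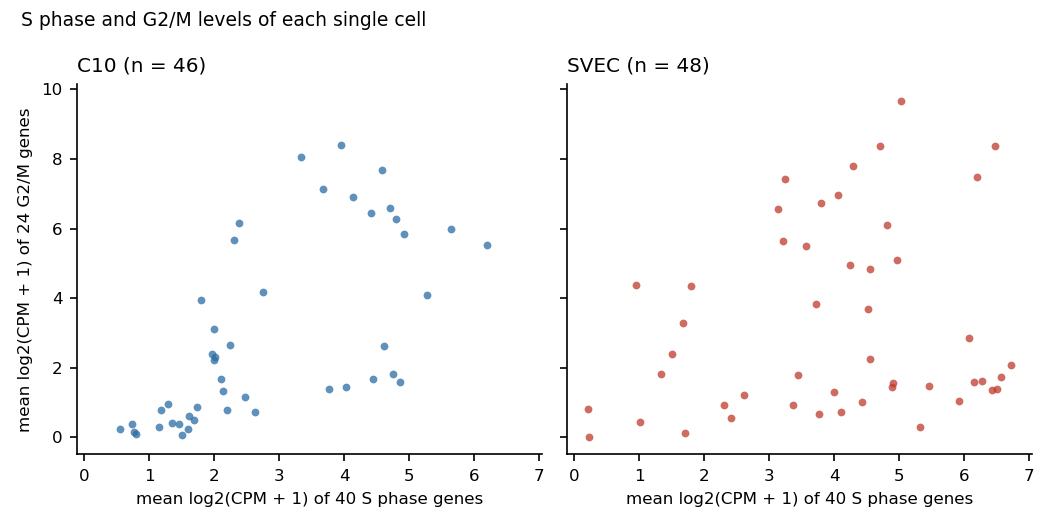
Mean log2(CPM + 1) of 24 G2/M genes (vertical axis) against that of the 40 S phase genes (horizontal axis), 1 point per single cell, for 46 C10 cells (left) and 48 SVEC cells (right). In C10, 23 cells lie below 3 on both axes, and in SVEC 19 cells lie above 3 for S phase genes only.

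Among 2922 other genes detected in at least 50% of the cells of both lines, the 10 whose level followed the members most closely included Dek, Tk1, Hat1, Cdk1, Hmgb2, Tcf19, Rfc3, Tmpo and Spc25. They were ranked by the mean over both lines of Pearson r with the mean level of the members, over 46 C10 and 48 SVEC cells. Dek, a chromatin protein, led with 0.73 in C10 and 0.63 in SVEC. Tk1, thymidine kinase, had 0.65 and 0.68, and Hat1, a histone acetyltransferase, 0.72 and 0.60. The tenth, Spc25 of the kinetochore, had 0.72 and 0.49, and the median over the genes compared was a mean r of 0.22. Of the 10, 3 were on the second replication list and 1, Cdk1, on the G2/M list.

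The input series of C10 asked what the same genes look like when 1, 3 or 10 cells are pooled. The mean summed level was similar in the 3 groups, at 2599 ± 2116 CPM (SD, n = 8) for 1 cell, 2448 ± 668 (SD, n = 6) for 3 cells and 2657 ± 607 (SD, n = 6) for 10 cells, close to the 2566 CPM of the C10 single cells. The spread was smaller with more cells. Libraries of 1 cell ran from 0 through a median of 2528 to 6368 CPM, and 10 cell libraries from 1587 through a median of 2722 to 3362 CPM. The number of the 40 genes with a count was 20.9 ± 11.0 (SD, n = 8) for 1 cell, 31.7 ± 3.5 (SD, n = 6) for 3 cells and 37.2 ± 1.9 (SD, n = 6) for 10 cells. No gene was found in all 8 libraries of 1 cell, 19 were found in all 6 of 3 cells and 31 in all 6 of 10 cells. The coefficient of variation of a gene across libraries had a median of 1.81, 1.27 and 0.840 for 1, 3 and 10 cells, beside 1.85, 1.17 and 0.855 over the genes tested, and was lower with 10 cells than with 1 for 38 of 39 genes. The library of 1 cell that held none of the 40 genes was replicate 1, with 430798 counts and 538 genes detected.

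**Figure D5:**
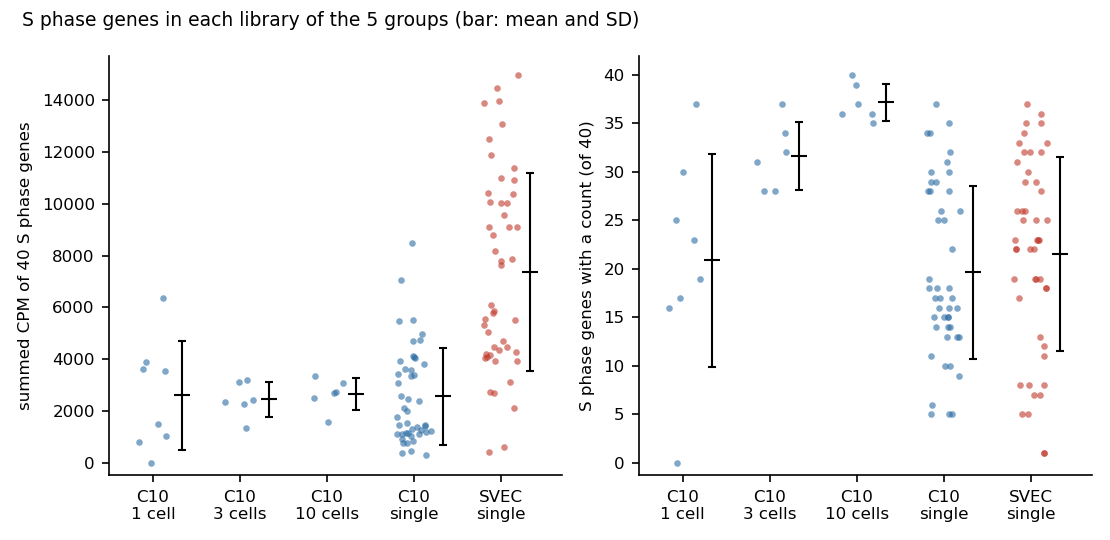
Summed CPM of the 40 S phase genes (left) and number of them with a count (right) in each library of the C10 input series (1 cell, n = 8; 3 cells, n = 6; 10 cells, n = 6) and of the C10 (n = 46) and SVEC (n = 48) single cells, with mean and SD as a bar. Means of the 4 C10 groups lie between 2448 and 2657 CPM while their spread narrows with more cells, and SVEC lies higher.

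Single members show how pooling fills in the levels. Mcm4 had at most 0.637 CPM in 7 libraries of 1 cell and 233 CPM in the eighth, replicate 10. With 3 cells it ran from 0.171 through a median of 3.52 to 158 CPM, and with 10 cells from 1.57 through a median of 44.8 to 53.3 CPM. So with 10 cells all but 1 library held a clear level of Mcm4. Prim1 was high in 2 of 8 libraries of 1 cell (229 and 174 CPM), at most 5.44 CPM in the others, and ran from 3.68 through a median of 62.0 to 96.1 CPM with 10 cells. Slbp ran from 0 through a median of 123 to 356 CPM with 1 cell and from 67.0 through a median of 145 to 223 CPM with 10 cells. Pcna was absent from 2 of 8 libraries of 1 cell, between 199 and 411 CPM in the others, and between 153 and 366 CPM with 10 cells.

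Tests across the input series called few of the 40 genes. With 10 cells against 1, edgeR called 3 higher (Pold3, Usp1 and Pola1), where 10.6% of 13645 genes were called higher and 0.0879% lower. With limma it was 6 of the 40, against 10.3% of all genes. With 3 cells against 1 it called Pold3 and Usp1 higher and Clspn lower, where 6.07% were called higher, 0.278% lower and 6.35% in either direction. With limma it was 1 of the 40, Usp1, against 0.887% of all genes. With 10 cells against 3, edgeR called none of the 40 and 0% of all genes. Limma called none of the 40, and 0.257% of all genes higher with 10 cells. DESeq2 called Clspn, where 191 of all 13645 genes were called higher and 10 lower. An unadjusted edgeR p under 0.05 was found for 2 of the 40 and for 1346 of all 13645 genes. Without replicate 1 of the 1 cell group, no member was called in any of the 3 comparisons. Of all 13645 genes, edgeR then called 334 higher and 2 lower with 10 cells against 1. It called 32 higher and 0 lower with 3 against 1, and 0 with 10 against 3.

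Usp1, a deubiquitinase of DNA repair, had at most 6.52 CPM in the libraries of 1 cell. With 3 cells it ran from 9.99 through a median of 73.9 to 103 CPM, and with 10 cells from 4.73 through a median of 45.7 to 142 CPM. Its log2 fold change was 6.06 for 10 cells against 1 (adjusted p = 0.0317, edgeR; 0.00480, limma), and without replicate 1 the adjusted p was 0.0585. Pola1, the catalytic subunit of polymerase alpha, had at most 0.255 CPM with 1 cell and reached 10 CPM in 3 of 6 libraries of 10 cells (log2 fold change 6.17, adjusted p = 0.0275, edgeR; 0.0211, limma). Pold3, a subunit of polymerase delta, had no count in any library of 1 cell. With 3 cells it was at 35.0 and 166 CPM in 2 libraries and without a count in the other 4, and with 10 cells at 13.3, 30.4 and 60.4 CPM in 3 libraries and without a count in the other 3. The adjusted p was 0.0416 for 3 cells against 1 (edgeR; 0.414, limma) and 0.0355 for 10 against 1 (edgeR; 0.158, limma). Clspn was at 112 and 234 CPM in 2 libraries of 1 cell and at most 0.145 CPM in all 6 of 3 cells (log2 fold change -9.03, adjusted p = 0.0493, edgeR; 0.525, limma).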

How the data were processed

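The authors deposited whole-number read counts, 1 file per library, with 40202 gene symbols and 5 closing counters of unassigned reads. FastQC, STAR and HTSeq are named in the submitters' processing notes, without versions. The genome build, annotation and strand setting are not given in the sources used here. The counter of reads with several alignments is 0 in every file, so near-identical copies may be undercounted. Per the labels, SMART-Seq v4 Plus cDNA was sequenced as single reads. No molecular identifiers are described. The intervals given with shares of cells cover only the sampling of cells. The closing counters were left out of library sizes and tests; reads that were not aligned came to a median of 28.3% of the C10 and 36.1% of the SVEC single-cell libraries.

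Libraries were grouped by their titles. Those with fewer than 1000 counts were left out. No 2 libraries of a group agreed within sampling noise (lowest chi-square per degree of freedom 3.23), so each counted once. The 40 genes, their roles and the other lists were chosen with earlier results of these data known. Counts were tested with edgeR 4.0.16 (R 4.3.3; TMM, quasi-likelihood F test, two-sided, Benjamini-Hochberg over all genes tested). The filter was detection in at least 25% of a line, or 50% of an input group, and the 3 input groups were 1 model. The alternatives were limma 3.58.1 on log2(CPM + 1), DESeq2 1.42.0, other scalings and filters, and drawing down to 100000 counts. Scripts were tested on simulated data.

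Full statistics were given for called genes found in 50% or more of the cells of the higher line, and for the gene with the lowest p in each role. One item ranked by the naming rule is not reported here. Clspn is named as a called gene outside that rule. The replicate numbers in the labels were checked as pairs and did not pair the libraries. The Wilson intervals are at 95%. Promoters were matched by symbol to RefSeq, GRCm38.p6.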

Additional observations from a re-analysis of the deposited data

Results flagged for a closer look

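In the C10 input series, 4 of 21 groups of values for single genes held a library far from the others of its group. The nominal rate of the rule is about 1 in 20, or 1.05 of the 21. That rate was not checked for genes near 0 in most libraries of a group, so the 4 are not read as an excess over chance. Mcm4 was at 233 CPM in replicate 10 of the 1 cell libraries, and the other 7 were at 0.637 CPM or less. Atad2 was at 339 CPM in the same library, and at most 2.87 CPM in the other 7. That library held 37 of the 40 S phase genes and a summed level of 6368 CPM, the highest of its group in both, with 11764 genes detected. With 3 cells, Slbp was at 294 CPM in replicate 9, with the other 5 libraries from 34.7 to 128 CPM. Atad2 was at 172 CPM in replicate 1 of the 3 cell libraries, with the other 5 from 0.461 to 44.1 CPM.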

How the results depend on the processing

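The direction of the C10 and SVEC comparison held for the S phase genes called under every alternative, and none was called higher in C10. The number called, 7 by edgeR, was 3 with DESeq2, 11 with limma at either pseudocount (1 or 0.1), 13 with library totals, 15 with the detection rate as a covariate and 12 with counts drawn down to 100000, a step added after seeing the data. It was 5 to 9 under the remaining settings. Mcm4, Prim1 and Slbp were called in all of them. Of all 9303 genes, edgeR called 417 higher in SVEC, DESeq2 194, and limma 328 and 290 at pseudocounts 1 and 0.1. The all-gene number was 670 with library totals, 638 with the covariate and 486 of 7226 with drawn counts. Under the remaining settings it ran from 212 of 5888 to 2115 of 18001. Of 432 single-gene results under the alternatives, 389 stayed on their side of the threshold, 36 crossed to a call and 7 lost one. The direction was that of the edgeR fit in 418, and no gene called in that fit changed direction. The 5 other replication genes called became 3 with DESeq2, with DESeq2 size factors, with detection in at least 50% of a line, and with libraries of at least 100000 counts. They became 8 with limma (2 of them higher in C10), 11 with the smaller pseudocount (5 higher in C10), 8 with library totals and 12 with the detection rate covariate. The 3 genes called for 10 cells against 1 became 6 with limma, and 0 with no filter or without replicate 1 of the 1 cell group. The 3 called for 3 cells against 1 became 5 with DESeq2, 1 with limma, and 0 with no filter or without that replicate. In that comparison DESeq2 called 882 of all 13645 genes higher and 237 lower. For 10 cells against 3, DESeq2 called 1 and edgeR 0, where DESeq2 called 191 of all genes higher and 10 lower, and edgeR 0. The causes were not tested. The median r of 0.35 in C10 and 0.34 in SVEC became 0.20 and 0.19 on residuals after depth and genes detected. Without the 2 cells farthest from the median level it was 0.30 and 0.34. With libraries of at least 100000 counts only, the median was 0.36 in C10 and 0.23 in SVEC, and with Spearman correlation 0.34 and 0.27.

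With the replicate number as a block, 9 S phase genes were called between the lines (Clspn was lost and Casp8ap2, Mcm6 and Rad51ap1 gained), and 0 for 10 cells against 1, 0 for 3 against 1 and 0 for 10 against 3. Of all 9303 genes, 299 were called higher in SVEC and 2809 higher in C10 with this block. The libraries share only a number: deviations of same-numbered libraries correlated at a mean r of 0.0033 between the lines, where 2 of 46 pairs matched best with their own number, and at -0.0033, 0.022 and 0.016 in the input series. Depth limits the SVEC cells most, and a gene without a count in a shallow cell is not shown to be absent.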
